A study of Mus musculus with 10 samples.

Results

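The 9 genes described here are Inhba, Tgfb1, Tgfbi, Tgfbr1, Tgfbr2, Smad2, Smad3, Smad4 and Smad7, which encode a ligand subunit, a ligand, a matrix protein, receptors and Smad proteins of the activin and transforming growth factor beta (TGF-beta) pathways. All 9 were found by symbol among the 22818 rows with a gene symbol, in a table of 39488 rows. Inhba was chosen for its strong rise in the comparison below, so its values are a description and carry no test. The other 8 were listed for their place in the pathway and were tested.

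Peritoneal macrophages of wild-type C57BL/6 mice (8 weeks of age) were elicited with thioglycollate, an irritant that draws monocyte-derived macrophages into the peritoneal cavity, and were collected on the third day. RNA-seq was run on 5 control and 5 ox-LDL cultures. The ox-LDL cultures were primed with lipopolysaccharide (LPS) at 100 ng/ml, a bacterial ligand of Toll-like receptor 4, and then kept with oxidized low-density lipoprotein (ox-LDL) at 100 µg/ml for 16 h. The control cultures are labelled untreated, but a protocol field shared by all samples names ox-LDL, and the study's text can be read as LPS priming in both groups. Under the labels, effects of LPS and of ox-LDL cannot be told apart. The labels call the cultures biological replicates and do not say whether each came from its own mouse, so the tests measure the spread between these cultures.

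Activin A is a dimer of the inhibin beta A chain encoded by Inhba, and TGF-beta 1, encoded by Tgfb1, is secreted in a latent form that has to be released. Each ligand binds a type II receptor kinase, which recruits and activates a type I receptor kinase. Both pathways then phosphorylate the receptor Smads, Smad2 and Smad3, which enter the nucleus with Smad4, while Smad7 blocks the receptor. In macrophages TGF-beta is known for restraining inflammatory genes, for matrix production and for repair.

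Total counts were 20094647 to 20687289 in the control libraries (median 20238235) and 19257131 to 20358017 in the ox-LDL libraries (median 19691375). The macrophage label was checked with 8 markers. All 8 were expressed, and their summed level was 19676 to 46844 CPM (TMM-normalized counts scaled to a common library total) in controls and 12493 to 47930 CPM in ox-LDL libraries. Markers of other cells stayed far below. The summed level was 6.33 to 15.7 CPM in controls and 11.3 to 153 CPM in ox-LDL libraries for neutrophils, where nearly all of it was S100a8, which activated macrophages can also express. It was 0.984 to 2.68 against 1.02 to 2.96 CPM for B cells, 0.513 to 1.49 against 0 to 1.19 CPM for T and NK cells, 0.770 to 1.30 against 1.87 to 4.62 CPM for dendritic cells and 2.61 to 9.60 against 0.439 to 3.82 CPM for eosinophils and mast cells. For platelets it was 26.3 to 71.7 against 51.4 to 584 CPM, nearly all from Pf4, while Gp9 had 0 counts in every library. The highest neutrophil and platelet sums were in ox-LDL replicate 2, a library that was high for short genes, as given below. S100a8 and Pf4 are short, at about 263 and 454 bases. The 9 mesothelial and stromal markers are given below beside the matrix genes. Of the macrophage markers, Adgre1 and Cd14 rose (log2 fold changes 2.07 and 2.24, edgeR adjusted p = 2.87e-04 and 8.46e-04), the other 6 did not pass the threshold, and Lyz2 made up most of the sum in every library. The part of other cells in the results was not tested, except where a value below bears on it.

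In short, Inhba was the member that stood out, low in controls and with the highest mean FPKM of the 9 in ox-LDL libraries, although in ox-LDL replicate 1 both Tgfb1 and Tgfbi were above it. Tgfbi rose and Tgfbr1 fell. Tgfbr2, Tgfb1, Smad2, Smad3, Smad4 and Smad7 did not pass the threshold. In bulk RNA, a change in the share of cells that express a gene and a change in its RNA per cell cannot be told apart.

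For orientation, the 250 bases before the annotated start of the 3 genes with the clearest differences are printed below from RefSeq (build GRCm38.p6), 5′ to 3′ along the gene. Windows of 6 members were looked up and all 6 were found. Those shown are of Inhba (chr13:16011601-16011850, plus strand), Tgfbi (chr13:56609336-56609585, plus strand) and the first of the 2 listed starts of Tgfbr1 (chr4:47352972-47353221, plus strand). Capitals mark matches, on either strand, to a TATA box (TATAAA), a GC box (GGGCGG) or a CCAAT box (CCAAT).
Inhba: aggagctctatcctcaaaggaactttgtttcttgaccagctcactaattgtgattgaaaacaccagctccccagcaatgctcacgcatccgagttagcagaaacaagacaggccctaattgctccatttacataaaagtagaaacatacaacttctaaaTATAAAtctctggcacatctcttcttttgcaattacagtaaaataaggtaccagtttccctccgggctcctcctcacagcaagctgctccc
Tgfbi: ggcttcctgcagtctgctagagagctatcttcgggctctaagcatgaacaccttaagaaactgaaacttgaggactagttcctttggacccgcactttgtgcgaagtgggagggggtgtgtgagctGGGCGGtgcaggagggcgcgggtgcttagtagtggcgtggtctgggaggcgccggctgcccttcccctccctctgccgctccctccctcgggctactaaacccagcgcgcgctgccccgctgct
Tgfbr1: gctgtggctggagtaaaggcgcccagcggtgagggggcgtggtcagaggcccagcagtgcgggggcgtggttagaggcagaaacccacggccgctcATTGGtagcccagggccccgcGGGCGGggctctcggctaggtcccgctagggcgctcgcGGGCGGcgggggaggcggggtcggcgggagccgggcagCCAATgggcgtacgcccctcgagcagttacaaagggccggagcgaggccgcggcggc
The 3 windows differed in base composition. That of Inhba was 43.2% G and C, against 62.4% for Tgfbi, 74.8% for Tgfbr1 and a median of 52.4% over 32851 windows of all genes. The Inhba window held the TATA box motif once, which 12.4% of all windows hold, and no GC box, which 32.7% hold. The TATA box match began at position -91 from the annotated start. The Tgfbi window held 1 GC box, and the Tgfbr1 window held 2 GC boxes and 2 CCAAT boxes, a motif found in 33.8% of windows. A Smad motif (CAGAC), present in 42.2% of windows and not capitalized above, had 2 matches in the Tgfbi window and none in those of Inhba and Tgfbr1. None of the 3 windows matched an AP-1 motif (TGANTCA), a cyclic AMP response element (TGACGTCA) or the NF-kB motif, which 6.75%, 1.55% and 7.25% of windows hold. Matches in these letters do not show that a factor binds.

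Inhba (NCBI gene 16323) spans 16103684 to 16119044 of chromosome 13 (mm9, plus strand), with no other annotated gene overlapping it. Its level was 0.553, 0.642, 0.727, 0.618 and 4.47 CPM in control replicates 1 to 5 and 48.6, 200.0, 612, 395 and 825 CPM in ox-LDL replicates 1 to 5. The groups were far apart, and the lowest ox-LDL library held 10.9 times the level of the highest control. In counts, controls 1 to 4 held 10 to 17 reads and control replicate 5 held 103, against 1118 to 13810 in the ox-LDL libraries.
The mean was 1.40 ± 1.72 CPM over the 5 controls and 416 ± 311 CPM over the 5 ox-LDL cultures (± SD). The fitted log2 fold change was 8.19 (standard error, SE, 0.99). Each SE of an edgeR fit was derived as the size of the log2 fold change divided by the square root of its F statistic. For Inhba it is given as a description of the fit and not as a test. The highest control library decides much of the control mean. Without control replicate 5 the fitted log2 fold change was 9.33, and without ox-LDL replicate 1 it was 8.48. Within the ox-LDL group the level of Inhba spanned 17.0-fold, the widest span of the 9 genes.

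**Figure D1:**
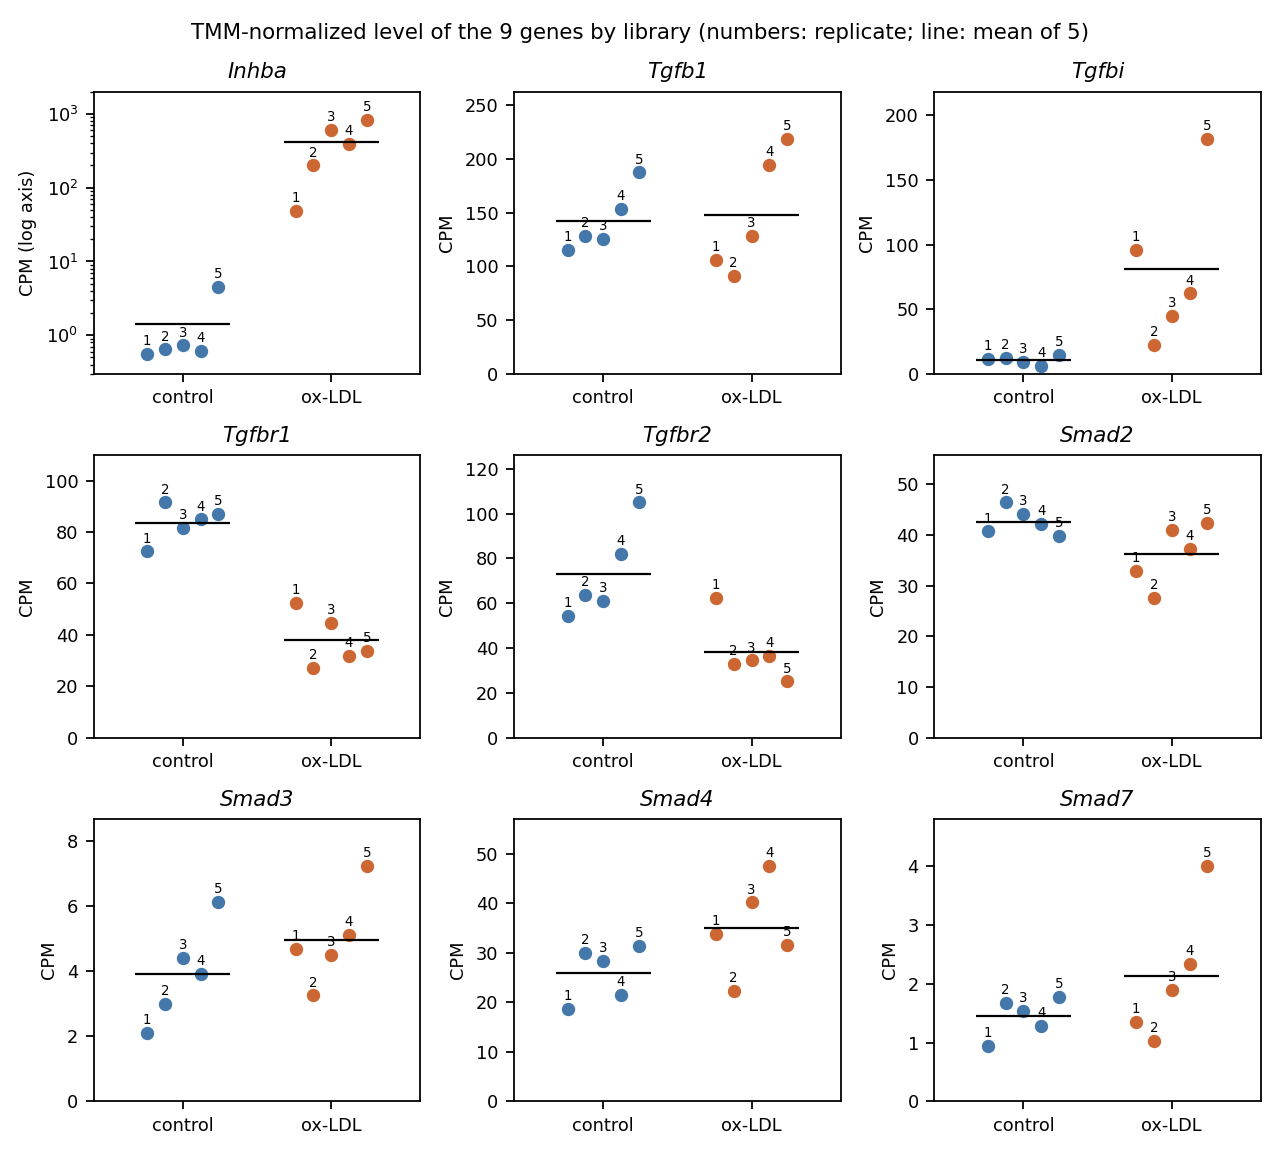
TMM-normalized CPM of the 9 genes in each library, with control libraries in blue, ox-LDL libraries in orange, the replicate number above each point and a line at the mean of 5 (Inhba on a log axis, the other genes from 0). Inhba and Tgfbi in ox-LDL libraries lie above all controls, Tgfbr1 lies below all controls, and the groups of the other 6 genes overlap.

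The activin beta B and inhibin alpha chains had few reads, and no row was found for Inhbc and Inhbe. Inhbb, the beta B chain, had 1 read in all controls together and 2 in all ox-LDL libraries, and Inha, the alpha chain that turns a beta chain into inhibin, had 1 and 5. Neither could be tested. The secreted activin antagonists were also low, with 8 and 21 reads for Fst (follistatin) and 18 and 45 for Fstl3. Among Inhba, Inhbb and Inha, Inhba therefore held nearly all reads in the ox-LDL libraries.

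Tgfb1 (NCBI gene 21803, mm9 chromosome 7, 26472021 to 26490096, plus strand) was expressed at a high level in both groups. Its level was 115, 128, 125, 153 and 187 CPM in control replicates 1 to 5 and 106, 91.4, 128, 194 and 219 CPM in ox-LDL replicates 1 to 5. The 2 groups overlapped over most of their range. The log2 fold change was 0.06 (SE 0.27, edgeR adjusted p = 0.903), and its sign turned under other scalings, to -0.10 with library size alone. By edgeR's quasi-likelihood fit, 14.7% of the 12654 genes tested were called at an adjusted p below 0.01 (9.4% higher and 5.35% lower in ox-LDL libraries), and 2 of the 8 members tested were called, 1 in each direction. Over those 12654 genes, 20.7% had no overlap between the groups (11.6% higher and 9.11% lower in ox-LDL libraries), and 2 of the 8 members had none, 1 in each direction. With a log2 fold change above 2 in size also required, 6.71% of genes were called, and 1 of the 8 members, Tgfbi, was.

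Tgfbi, an extracellular matrix protein named for its induction by TGF-beta, was the member that rose. The gene (NCBI gene 21810, mm9 chromosome 13, 56710920 to 56740923, plus strand) was at 11.5, 12.5, 9.16, 6.39 and 14.4 CPM in control replicates 1 to 5 and at 95.8, 22.3, 44.8, 62.2 and 182 CPM in ox-LDL replicates 1 to 5. In CPM no ox-LDL library fell within the control range, with replicate 5 the highest and replicate 2 the lowest. The control mean was 10.8 ± 3.10 CPM and the ox-LDL mean 81.4 ± 62.3 CPM (± SD, 5 libraries each), with a log2 fold change of 2.92 (SE 0.49, edgeR adjusted p = 0.00115). The separation of ox-LDL replicate 2 depended on the scaling: its FPKM was 5.15, inside the control range of 2.46 to 6.49. Without that library the log2 fold change was 3.12, and the call held under every setting tried.

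Of the TGF-beta receptors, Tgfbr1 fell and Tgfbr2 did not pass the threshold. Tgfbr1, the type I receptor of TGF-beta (NCBI gene 21812, mm9 chromosome 4, 47366094 to 47427803, plus strand), was at 72.4, 91.5, 81.6, 84.8 and 86.9 CPM in control replicates 1 to 5. The ox-LDL replicates were at 52.3, 27.2, 44.7, 31.6 and 33.6 CPM. Every control was above every ox-LDL library, and the controls were close to each other. Tgfbr1 thus fell, with means of 83.4 ± 7.13 CPM and 37.9 ± 10.3 CPM (± SD, 5 libraries each) and a log2 fold change of -1.14 (SE 0.20, edgeR adjusted p = 0.00145).
Tgfbr2, the type II receptor (NCBI gene 21813, mm9 chromosome 9, 115993415 to 116084383, minus strand), was at 54.4, 63.8, 60.9, 81.9 and 105 CPM in controls and 62.2, 32.8, 34.4, 36.5 and 25.0 CPM in ox-LDL libraries. Ox-LDL replicate 1 lay within the control range, and the other 4 ox-LDL libraries lay below it. The log2 fold change of -0.94 (SE 0.27) had an edgeR adjusted p of 0.0217 and did not pass the threshold of 0.01. Without ox-LDL replicate 1, the library within the control range, it was -1.19, with an edgeR adjusted p of 0.00358. Without any other single library the edgeR adjusted p was 0.0168 to 0.0554.
Both receptor transcripts are long, at about 5505 and 4524 bases as implied by the files. Ox-LDL replicate 2 was low for long genes, with a median deviation of -0.52 on the log2 scale for 2656 genes over 4000 bases. For genes under 1 kilobase its median deviation was 1.45, against -0.46 to 0.39 in the other libraries. With each library's trend on gene length removed, the log2 fold change was -1.40 for Tgfbr1 (adjusted p = 6.56e-05) and -1.10 for Tgfbr2 (adjusted p = 0.00343, past the threshold). Scaling by library size alone left Tgfbr1 at -1.25 with an adjusted p of 0.0153.
The balance of the receptors within a library did not differ beyond its spread. The log2 ratio of Tgfbr1 to Tgfbr2 counts was 0.23 ± 0.33 in controls and 0.01 ± 0.35 in ox-LDL libraries (SD, n = 5 each; two-sided exact permutation test, p = 0.325, adjusted over 3 ratios 0.488).

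The Smad transcripts did not pass the threshold. Smad2, a receptor Smad, was at 39.8 to 46.4 CPM in controls (median 42.2) and 27.6 to 42.5 CPM in ox-LDL libraries (median 37.3), with a log2 fold change of -0.23 (SE 0.16, edgeR adjusted p = 0.304). Smad3, the other receptor Smad, was far lower at 2.10 to 6.12 CPM in controls and 3.25 to 7.23 CPM in ox-LDL libraries, with a log2 fold change of 0.34 (SE 0.31, edgeR adjusted p = 0.453). Their ranges overlapped between the groups, and Smad3 rested on 38 to 141 reads per library. The log2 ratio of Smad3 to Smad2 was -3.53 ± 0.60 in controls and -2.89 ± 0.25 in ox-LDL libraries (SD, n = 5 each; two-sided exact permutation test, p = 0.0635, adjusted over 3 ratios 0.190). Control replicate 5 had the highest control ratio, at -2.70, and was the only control within the ox-LDL range. Without it, a choice made after its value was seen, the difference of 0.84 had an adjusted p of 0.0238 in the same exact permutation test. The groups then no longer overlap, so the test can give no smaller p. Without any other single library the adjusted p of this test was 0.198 to 0.357.
Smad4, the common partner of the receptor Smads, was at 18.6 to 31.3 CPM in controls (median 28.4) and 22.3 to 47.5 CPM in ox-LDL libraries (median 33.7), a log2 fold change of 0.43 (SE 0.23, edgeR adjusted p = 0.180). Smad7, the inhibitory Smad that is itself induced by TGF-beta, was at 0.940, 1.67, 1.54, 1.29 and 1.78 CPM in control replicates 1 to 5 and 1.35, 1.03, 1.90, 2.34 and 4.00 CPM in ox-LDL replicates 1 to 5. Its log2 fold change was 0.56 (SE 0.38, edgeR adjusted p = 0.305), from 12 to 67 reads per library.
The log2 ratio of Smad7 to Smad4 was -4.15 ± 0.09 in controls and -4.14 ± 0.66 in ox-LDL libraries (SD, n = 5 each; two-sided exact permutation test, p = 1). The 5 controls lay within a narrow band, whereas ox-LDL replicate 5, at -2.97, lay far above the other ox-LDL libraries at -4.62 to -4.33. Without that library, left out after its value was seen, the ratio was lower by 0.28 in the ox-LDL group. The adjusted p was then 0.0238 in the same exact permutation test, which can give no smaller p once the groups do not overlap. Without any other single library the adjusted p of this test was 0.960 or more.

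Levels of different genes can be compared only per length, for which the deposited FPKM values were used. In controls Tgfb1 was the highest of the 9 genes at 74.9 ± 19.4 FPKM (SD, n = 5), above the range of every other member. Tgfbr2 (17.3 ± 5.73), Tgfbr1 (16.1 ± 2.81) and Smad2 (14.5 ± 2.21 FPKM) followed with overlapping ranges. Smad4 (7.12 ± 2.04) and Tgfbi (4.59 ± 1.55) also overlapped, and Smad3 (0.914 ± 0.415), Inhba (0.550 ± 0.875) and Smad7 (0.426 ± 0.148 FPKM) were the lowest.
In ox-LDL libraries Inhba had the highest mean, 122 ± 92.4 FPKM (SD, n = 5), but its range of 17.4 to 228 overlapped that of Tgfb1 (69.9 ± 30.0). Tgfbi followed at 31.1 ± 21.5 FPKM, then Smad2, Smad4, Tgfbr2 and Tgfbr1 between 11.2 and 6.75 FPKM, each overlapping its neighbour. Smad3 and Smad7 stayed lowest, at 1.03 ± 0.355 and 0.540 ± 0.231 FPKM. By mean FPKM, Inhba thus stood in the eighth place in controls and in the first in ox-LDL libraries.

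**Figure D2:**
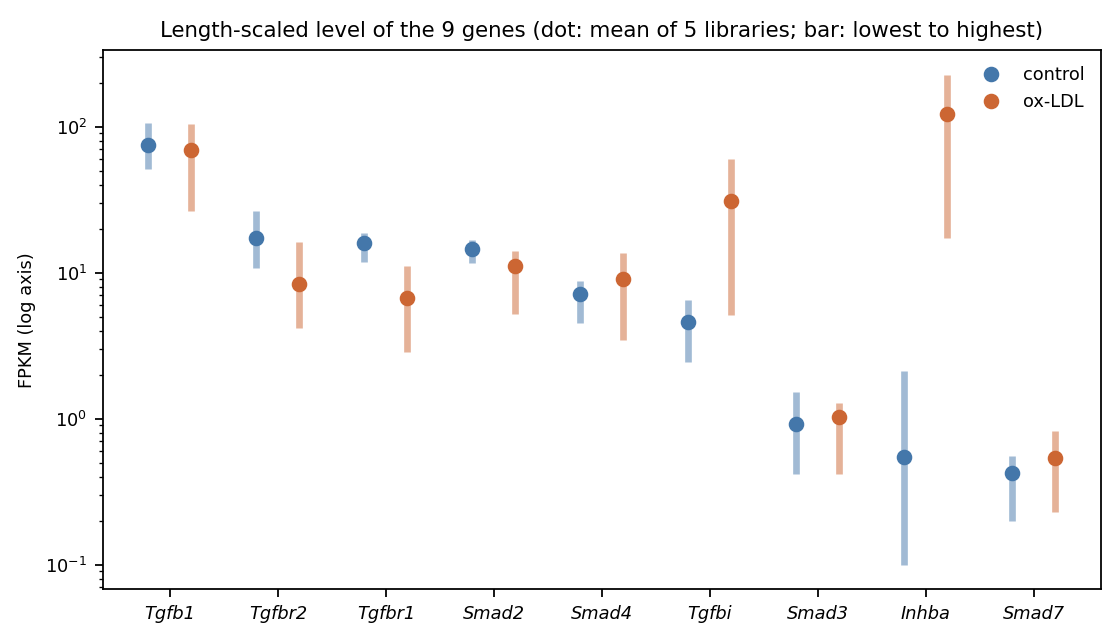
FPKM of the 9 genes on a log axis, ordered by their control mean, with controls in blue and ox-LDL libraries in orange; dots are means of 5 libraries and bars run from the lowest to the highest library. Inhba moves from 0.550 to 122 FPKM on average, while Tgfb1 is at 74.9 and 69.9 FPKM and the bars of each Smad gene overlap between the groups.

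The rest of the pathway was described with lists of 77 genes, of which 73 had a row and 58 had enough counts to be tested. Of these 58, 14 rose and 2 fell, which is 27.6% against 14.7% of all genes tested, and the median log2 fold change was 0.52 against 0.10 over all genes. These shares depended on ox-LDL replicate 2: without it 28.3% of the pathway genes and 25.1% of all genes tested were called. The lists were chosen with earlier results of these data in view. By list, the share called was 0 to 40.0%. The counts of single lists below rest on at most 12 tested genes each and stand beside the 14.7% of all genes.

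Of the 5 other ligands tested, 1 rose and 1 fell. Gdf15, a stress-induced ligand of the TGF-beta family, was at 18.9 to 40.0 CPM in controls and 46.0 to 186 CPM in ox-LDL libraries, with a log2 fold change of 1.95 (SE 0.35, edgeR adjusted p = 0.00170). Gdf3, a ligand related to Nodal, fell from 30.0 to 45.2 CPM in controls to 9.17 to 25.3 CPM in ox-LDL libraries (log2 fold change -1.45, adjusted p = 0.00172). The groups did not overlap for either gene. Tgfb2 and Tgfb3, the other TGF-beta ligands, were at 1.85 CPM or less in every library, and their adjusted p values were 0.889 and 0.916 in the same test.

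Among 11 tested genes that store latent TGF-beta or release it, 3 rose and 1 fell. Itgb5, a partner of the alpha v integrin that can release TGF-beta, fell from 113 to 136 CPM in controls to 18.2 to 47.7 CPM in ox-LDL libraries, with a log2 fold change of -2.03 (SE 0.24, edgeR adjusted p = 1.13e-04). Mmp14, a membrane metalloproteinase, rose from 12.7 to 60.0 CPM to 102 to 314 CPM (log2 fold change 2.61, adjusted p = 0.00104). Its highest control was replicate 5, and without that library the log2 fold change was 3.06. In FPKM, Mmp14 in ox-LDL replicate 2 was at 17.8, below the 20.2 of control replicate 5. Ltbp2 and Fbn1, which encode proteins of the matrix microfibrils to which latent complexes bind, rose from 4 to 14 reads per control library, with log2 fold changes of 2.50 and 3.04 (adjusted p = 0.00219 and 3.17e-04). Nrros, which holds latent TGF-beta on myeloid cells, was at 132 to 235 CPM in controls and 58.0 to 167 CPM in ox-LDL libraries (log2 fold change -0.87, adjusted p = 0.0536). Without ox-LDL replicate 5 the log2 fold change of Nrros was -1.20 with an edgeR adjusted p of 0.00514. That was the only 1 of 25 alternatives in which Nrros passed. Over all fits with 1 library left out, its log2 fold change ranged up to -0.73 and its adjusted p up to 0.125.

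Of 9 other receptors and co-receptors tested, 2 rose. Acvrl1 (ALK1), a type I receptor that signals through other Smads than Smad2 and Smad3, was at 9.43 to 17.1 CPM in controls and 26.5 to 73.7 CPM in ox-LDL libraries, with a log2 fold change of 1.53 (SE 0.31, edgeR adjusted p = 0.00332). Eng (endoglin), a co-receptor that works with ALK1, was at 6.85 to 8.57 CPM in controls and 11.3 to 36.6 CPM in ox-LDL libraries (log2 fold change 1.62, adjusted p = 9.99e-04). In CPM neither gene overlapped between the groups, but the call was lost in 6 of 25 alternatives for Acvrl1 and in 4 for Eng. The separation of ox-LDL replicate 2 depended on the scaling. Its FPKM was 4.51 for Acvrl1 (controls 2.65 to 5.79) and 2.23 for Eng (controls 2.28 to 2.79). The activin receptors proper did not pass the threshold: the type I receptor Acvr1b was at 9.53 to 19.8 CPM in controls and 11.6 to 42.2 CPM in ox-LDL libraries (log2 fold change 0.82, adjusted p = 0.0784), and the type II receptors Acvr2a and Acvr2b had log2 fold changes of 0.28 and -0.73 (adjusted p = 0.464 and 0.145). Bmpr2, a type II receptor for bone morphogenetic proteins, had a log2 fold change of -0.16 (adjusted p = 0.602).

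Inside the cell, none of the 6 tested Smads and partners was called, and their log2 fold changes lay between -0.27 and 0.20. Map3k7 (TAK1), the kinase of the Smad-independent branch, had a log2 fold change of -0.11. None of the 4 tested genes that relieve inhibition (the ligase Rnf111 and the deubiquitinases Usp4, Usp11 and Usp15) was called either, with Usp4 as an example (log2 fold change -0.46, edgeR adjusted p = 0.0683). Of the 8 tested intracellular inhibitors, 3 rose and none fell. Skil (SnoN), a repressor that binds Smads and whose gene is a Smad target, was at 11.7, 12.7, 13.2, 11.4 and 18.5 CPM in control replicates 1 to 5 and at 47.8, 37.4, 66.4, 54.3 and 70.6 CPM in ox-LDL replicates 1 to 5.
Its log2 fold change was 2.03 (SE 0.22, edgeR adjusted p = 6.42e-05), and this call held under every setting tried. Pmepa1, which removes receptor Smads and is itself induced by TGF-beta, had 3 to 5 reads in every control library and 1.48 to 6.45 CPM in ox-LDL libraries against at most 0.258 in controls, a log2 fold change of 4.28 (SE 0.47, edgeR adjusted p = 6.82e-05). Smurf1, a ubiquitin ligase of this pathway, rose by a log2 fold change of 1.39 (SE 0.28, edgeR adjusted p = 0.00320), a call lost in 7 of 25 alternatives. In FPKM, Smurf1 was at 2.43 and 4.33 in ox-LDL replicates 2 and 5, against 2.52 to 5.02 in controls. Tgif1, a corepressor of Smads, had a log2 fold change of 0.56 (adjusted p = 0.0684).

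Of 12 known target genes tested, 4 rose and none fell, with a median log2 fold change of 1.18. The share called was 33.3%, against 14.7% of all genes tested, whose median log2 fold change was 0.10. These genes also answer to other signals, inflammatory ones among them. Id2, a helix-loop-helix inhibitor, rose and was at 111 to 236 CPM in controls and 252 to 1445 CPM in ox-LDL libraries (log2 fold change 2.16, edgeR adjusted p = 0.00701). Its adjusted p moved above 0.01 without any one of the 5 controls and without ox-LDL replicate 5. The highest CPM of Id2 was in ox-LDL replicate 2, but in FPKM ox-LDL replicate 5 was the highest, at 904 against 742. Ccn1 and Ccn2, matrix-associated growth regulators, rose from at most 7 reads per control library, with log2 fold changes of 4.50 and 4.86 (adjusted p = 9.43e-04 and 0.00251). Ox-LDL replicate 5 was the highest library for both, and without it their log2 fold changes were 3.68 and 3.35.
Col1a1, a chain of type I collagen, rose from 1.07 to 4.56 CPM to 8.65 to 29.7 CPM (log2 fold change 2.72, edgeR adjusted p = 0.00120). In FPKM, Col1a1 in ox-LDL replicate 2 was at 0.88, below the 0.91 of control replicate 5. Col3a1, Fn1, Id1, Id3, Cdkn1a, Cdkn2b, Klf10 and Junb did not pass the threshold, with log2 fold changes of -0.21 to 1.28. Dcn (decorin), a matrix proteoglycan that binds TGF-beta, rose from 9.33 to 38.3 CPM to 56.6 to 91.6 CPM (log2 fold change 1.57, adjusted p = 0.00320), while the membrane inhibitors Bambi and Cd109 were not called.

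Stromal markers were examined beside these matrix genes. Over 9 mesothelial and stromal markers the summed level was 3.85 to 19.0 CPM in controls and 15.0 to 55.3 CPM in ox-LDL libraries, where ox-LDL replicate 2, the lowest, lay within the control range. In that library Dcn was at 89.7 CPM, its second highest value, but its rank depended on the scaling. In FPKM that library was the lowest ox-LDL library for Dcn, at 30.3, against 6.13 to 20.4 in controls. Of the 4 markers with enough counts, Col1a2 and Col5a1 rose (log2 fold changes 2.40 and 3.25, edgeR adjusted p = 0.00248 and 7.65e-04), and Wt1 and Pdgfra did not pass. Summed over the 5 libraries of a group, the mesothelial markers too low to test had 54 reads in controls and 8 in ox-LDL libraries for Upk3b, 11 and 11 for Msln, and 50 and 44 for Krt19. The stromal marker Pdgfrb had 8 and 79, and Pecam1, an endothelial marker of the list, had 5 and 36. None of the 9 was at 0 in every library. Whether stromal or endothelial cells contribute to the values of Col1a1, Dcn, Fbn1, Ltbp2, Tgfbi, Eng and Acvrl1 was not tested. Ltbp2, Fbn1, Mmp14, Acvrl1, Eng and Col1a1 overlap another annotated gene, and the sources used here do not say if strand was used in counting.

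**Figure D3:**
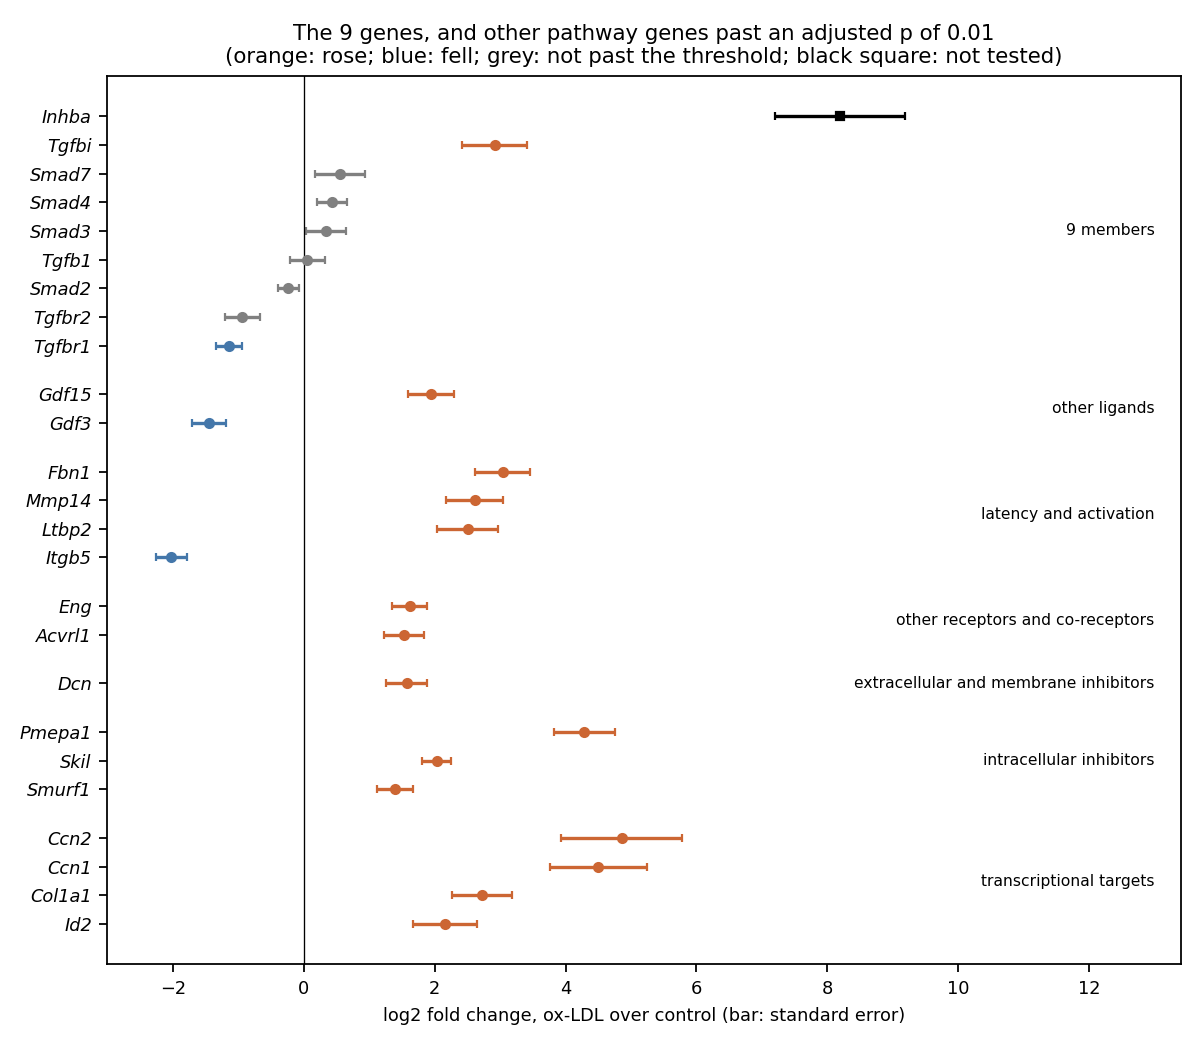
Fitted log2 fold change (ox-LDL over control, horizontal axis; bars are standard errors) of the 9 genes and of the 16 pathway genes called at an adjusted p below 0.01, grouped by role. Inhba, drawn as a black square because it was not tested, lies farthest to the right at 8.19, and Tgfbr1, Gdf3 and Itgb5 are the called genes to the left of 0.

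The genes whose profile over the 10 libraries was most like that of Inhba, by the root mean square difference of centred log2 CPM among 11927 named genes, included Gbp5 (0.57), Cxcl3 (0.68), Clic5 (0.79) and Il12b (0.86). Gbp5 encodes a guanylate-binding protein, Cxcl3 a neutrophil chemokine, Clic5 an intracellular chloride channel protein and Il12b the p40 chain of interleukin 12. Of the pathway genes named above, Ccn1 stood at rank 143 and Pmepa1 at rank 151. Tgfbi stood at rank 345, with a difference of 3.04. The measure follows the size of the group difference as well as the order of libraries, and it is a description.

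The order of the ox-LDL libraries differed between genes. For Inhba the order from low to high was replicates 1, 2, 4, 3 and 5. For Tgfbi it was 2, 3, 4, 1 and 5, so that ox-LDL replicate 1, the lowest for Inhba, was the second highest for Tgfbi. Replicate 5 was the highest ox-LDL library for Inhba, Tgfbi, Tgfb1, Smad2, Smad3 and Smad7, and the lowest for Tgfbr2.

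**Figure D4:**
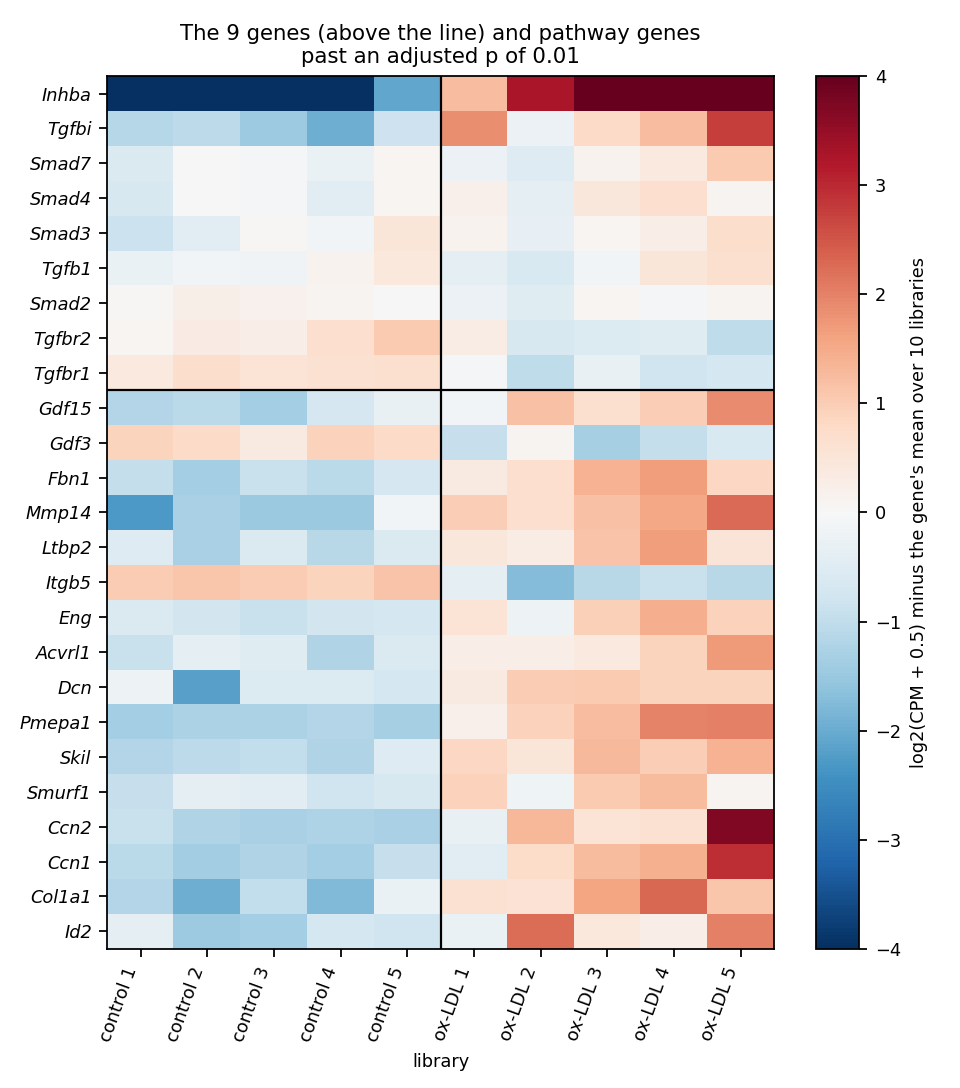
Level of the 9 genes (above the horizontal line) and the 16 called pathway genes (below it) in each library, as log2(CPM + 0.5) minus the mean of the gene over 10 libraries, from blue (lower) to red (higher), limited to 4 in both directions. Control replicate 5 is less blue than the other controls for Inhba (4.47 CPM), and ox-LDL replicate 5 is the reddest library for Tgfbi, Ccn1 and Ccn2.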

How the data were processed

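Per the submitters' processing notes, mm9 was the genome build, and the tools were HISAT2 2.0.5 (alignment), StringTie 1.3.3.13 (transcripts), SAMtools 1.4 and FastQC. The authors deposited estimated counts, not normalized (13.6% of values not whole), and FPKM values for each gene and library. The unit of the latter is not named. Count divided by value and library total gave a length per gene with a median coefficient of variation of 1.24% over 7129 genes with over 100 counts in every library. How reads were counted is not given in the sources used here.

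Symbols came from a RefSeq table of GRCm38.p6 by gene ID and coordinates from GENCODE for NCBIM37 (mm9). Counts were rounded, 9788 circular RNA rows (1.44% to 2.24% of counts) were left out, and genes were filtered with filterByExpr, normalized by TMM (factors 0.593, in ox-LDL replicate 2, to 1.19) and tested with edgeR 4.0.16 (quasi-likelihood, R 4.3.3) over 12654 genes with Benjamini-Hochberg adjustment. A call is an adjusted p below 0.01, the study's cutoff. Adding the study's second cutoff, a log2 change larger than 2 either way, was an alternative. Ratios used counts plus 0.5. DESeq2 1.42.0, limma 3.58.1 and further settings were alternatives. The procedures were tested on simulated data. Circular RNAs and the authors' other experiments were not analysed here.

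Members, lists, tests and alternatives were chosen with earlier results of these data known. Named genes were the 9 members, the called genes and the gene of each list with the highest CPM (mean of both groups, not per length), and those of the 5 genes most like Inhba that are reported. A gene of the lists is not reported here and was left out of the list counts. Other genes named, such as those too low to test or not past the threshold, were chosen after their values were seen. No 2 libraries of a group agreed within sampling noise (chi-square per gene of 10.4 or more, where sampling noise gives about 1).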

Additional observations from a re-analysis of the deposited data

Results flagged for a closer look

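Among 90 groups of 5 libraries, 16 held a library standing apart (a gap to the nearest library of over 0.71 of the group's range). For independent groups, about 1 in 20, or 4.5, would do so by chance. These groups reuse the same 10 libraries, and Gbp5, Cxcl3, Clic5 and Il12b were chosen for their likeness to Inhba. The groups are thus not independent, and the comparison with 4.5 is no test. No explanation was tested.

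Control replicate 5 was such a library for Inhba (4.47 CPM, next 0.727), Mmp14 (60.0, next 26.0), Skil (18.5, next 13.2), Gbp5 (6.30, next 0.996), Cxcl3 (2.00, next 0.567) and Il12b (0.825 CPM, next 0.0553), each time as the highest control. Without it the log2 fold change was 9.33 for Inhba, 3.06 for Mmp14 and 2.17 for Skil.

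Ox-LDL replicate 5 was the highest library of its group for Ccn1 (11.3 CPM, next 3.59), Ccn2 (19.4, next 3.34), Gbp5 (1120, next 381) and Il12b (182 CPM, next 38.4), and for the log2 ratio of Smad7 to Smad4 (-2.97, next -4.33).

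Ox-LDL replicate 2 was the highest for the summed macrophage markers (47900 CPM, next 18100), a sum that was mostly Lyz2 in every library, and for the summed platelet markers (584 CPM, next 175). In this library the median deviation of genes under 1 kilobase was 1.45 on the log2 scale. Lyz2 is about 1100 bases long, and Pf4, nearly all of the platelet sum, about 454. The part of gene length in these values was not tested. The remaining values were Ccn2 in control replicate 1 (0.332 CPM, next 0.171), Dcn in ox-LDL replicate 1 (56.6 CPM, the lowest, next 81.9) and the platelet markers in control replicate 4 (71.7 CPM, next 34.1).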

How the results depend on the processing

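Tgfbi kept its direction and its call in all 25 alternatives, with log2 fold changes of 2.20 to 3.26, and Smad2, Smad3 and Smad4 in the same 25, and Smad7 in the 23 that gave it a value, kept their direction and their side of the threshold. The fitted difference of Inhba was 5.91 on the log2(FPKM + 1) scale, where the added 1 lowers it by construction, and 7.77 to 9.33 when 1 library was left out. Tgfb1 turned to -0.10 with upper quartile normalization and with library size alone, -0.0070 with limma-voom, -0.012 without a filter on low counts, and -0.20 on the FPKM scale with either added constant. It was -0.14 to 0.17 when 1 library was left out. Tgfbr1 lost its call with library size alone (-1.25) and at a required log2 fold change above 2 in size (-1.14). Tgfbr2 passed with DESeq2 (-0.98), without a filter (-1.01), with the length trend removed (-1.10) and at an adjusted p below 0.05 (-0.94). It was -1.19 to -0.78 when 1 library was left out, and of these fits it passed only without ox-LDL replicate 1. Its edgeR adjusted p was 0.0539 with the replicate block and 0.0653 with library size alone. The members that fell therefore numbered 0, 2, 2, 2, 2 and 0 with library size alone, DESeq2, no filter, the length trend removed, an adjusted p below 0.05 and a log2 fold change above 2 in size, and 1 to 2 when 1 library was left out.

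Pathway genes that rose numbered 9 with at least 10 counts in every library, where fewer genes are tested, 5 with either FPKM scale and 9 at a log2 fold change above 2 in size. Those that fell numbered 4 with the length trend removed and 1 at a log2 fold change above 2 in size. The Smad3 to Smad2 difference was 0.45 to 0.84 and the Smad7 to Smad4 difference -0.28 to 0.13 when 1 library was left out (-0.02 without control replicate 1). Other than where stated, the cause was not tested. Against the fit reported, the median log2 fold change of all genes moved by -0.14 with upper quartile normalization, -0.19 with library size alone, 0.22 with DESeq2, 0.17 without a filter, and -0.23 and -0.27 on the FPKM scales. Genes called over the whole table numbered 1866, but 3253 with DESeq2, 3257 without ox-LDL replicate 2, 3326 without that library and control replicate 5, 2873 with the length trend removed and 1243 on log2(FPKM + 0.1). Of the called genes 63.7% were higher in ox-LDL libraries, against 54.2% with upper quartile normalization, 54.7% with library size alone, 53.9% without ox-LDL replicate 2 and 42.5% on log2(FPKM + 1).

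Replicate numbers did not clearly pair the libraries. The correlation of deviations of same-numbered libraries was -0.285 to 0.443, and 1 control and 2 ox-LDL libraries correlated best with their own number. Control and ox-LDL replicate 5 correlated best with each other (0.411), so a pairing is not excluded. With the replicate block Tgfb1 was at -0.0027, Inhba was at 8.27 (SE 0.58, against 0.99 without the block) and 1434 genes were called.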

Other observations

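Some genes of the lists had too few counts to be tested, and their values are given as reads summed over the 5 libraries of a group. Smad6, the inhibitory Smad of the bone morphogenetic protein branch, had 11 reads in controls and 83 in ox-LDL libraries. Snai1, a transcription factor of mesenchymal change and a TGF-beta target, had 2 and 49. Itgb8, an integrin chain that releases TGF-beta, had 24 and 64, and Tgif2, a repressor, had 32 and 56. Gdf11 had 18 and 31 reads, Acvr1c 23 and 30, and Itgb6 0 and 1. No difference is drawn from these values.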
